A study of Homo sapiens with 9 samples.

Results

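The phosphomimetic S239D form of PDCD4 was compared directly with the S239A form, which cannot be phosphorylated, by RNA sequencing of 22Rv1 cells, a human prostate carcinoma line labelled as prostate epithelial cells. The comparison takes 6 of the study's 9 libraries, chosen by their genotype labels, with 3 libraries of PDCD4-S239A and 3 of PDCD4-S239D. The other 3 libraries carry wild-type PDCD4 (WT) and serve to place each difference. In all groups the cells' own PDCD4 was lowered with a short hairpin RNA (shRNA) before 1 of the 3 forms was put back, and no drug treatment is labelled. By its design text, the study asked how PDCD4 that PLK1 has phosphorylated bears on resistance to enzalutamide, a drug used against prostate cancer. Neither parental cells nor cells with only the hairpin were analysed here. Vector and promoter of the rescue are not named in the labels, which also do not say whether a form came from 1 or several derived lines or whether its libraries were separate cultures. The p-values therefore reflect the spread of these samples alone, and that spread may be technical.

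PDCD4 is a tumour suppressor that holds the RNA helicase EIF4A and keeps it out of the cap-binding complex eIF4F, which recruits messenger RNA to the ribosome. Phosphorylation by several kinases marks PDCD4 for ubiquitination and degradation, and PLK1, a mitotic kinase, is the one this study places upstream of it. Aspartate carries a negative charge as a phosphate does, and alanine lacks the hydroxyl group that a kinase modifies, so S239D against S239A sets a fixed mimic of the modified state beside a state that cannot be modified. The site is shown here because the 2 forms differ by design only in this codon. In the 469-codon PDCD4 transcript of GENCODE release 29, the codon at the mutated position was TCA, which encodes serine, in exon 6 on the plus strand of chromosome 10 (GRCh38, chr10:110887803-110887847 for the stretch printed). The capitals mark the serine codon of the reference gene. The introduced copies are not printed, and the codon of the same number in a shorter 458-codon transcript was not a serine codon.
PDCD4 serine codon and its flanks: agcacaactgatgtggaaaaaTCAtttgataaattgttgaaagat

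Libraries held 8058207 to 9688554 counts in the 6 libraries compared and 5696841 to 9215664 in WT, so that 3 counts stood for 0.31 to 0.527 CPM, the count scaled to a common library size, over the 9. S239D lay at 55.2 to 58.7 on the first principal component (56.8% of the variance), S239A at -33.5 to -30.5 and WT at -25.8 to -24.7, so S239A was the farther of the other groups from S239D. The second component (10.9%) set replicate 2 of S239A (-35.8) and of S239D (-27.3) away from their groups. The mitochondrial genome gave 3.33, 5.38 and 2.99% of counts in S239A and 4.72, 6.01 and 4.9% in S239D, and those ranges overlap because of S239A replicate 2. Cytosolic ribosomal protein genes gave 5.7, 5.25 and 6.02% in S239A and 4.45, 3.9 and 4.46% in S239D, with no overlap. The 12 luminal prostate markers summed to 5580 to 5810 CPM in S239A and 4110 to 4530 in S239D. Fibroblast (67.6 to 75.1 against 45.2 to 55.8 CPM), endothelial (4.66 to 7.8 against 1.86 to 2.73) and leukocyte (3.82 to 7.06 against 2.96 to 3.1) marker sums were lower in S239D, with FAP, CDH5, CD3E and MS4A1 at 0 in every library. These sums rest on few genes, since 4 of 10 fibroblast, 7 of 9 endothelial and 10 of 12 leukocyte markers stayed under 1 CPM throughout. Smooth muscle (26.5 to 35 against 35 to 49.8) and basal prostate markers (50.5 to 59.6 against 54.9 to 61.3) overlapped or met. Hepatocyte markers summed to 16 to 21.8 CPM in S239A and 73.9 to 83.8 in S239D, nearly all of it ALB, with FGA, FGB and HP at 0. All libraries are labelled as 22Rv1 cells. The part of other cell types in the results was not tested, and in bulk RNA fewer cells of a type and less RNA per cell cannot be told apart.

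PDCD4 itself was the first gene read, since it was depleted and put back. Its counts were 19, 23.1 and 25 CPM in the S239A libraries and 16.8, 17.1 and 17 CPM in those of S239D, and 24.1, 24.9 and 20.4 CPM in WT. In CPM, all 3 S239D libraries lay close together and below every other library, while S239A and WT overlapped. In TPM, S239D (9.71, 11.95 and 14.64) overlapped both S239A (9.24, 17.51 and 16.28) and WT (14.83, 18.09 and 12.23). From S239A to S239D, PDCD4 fell by 0.40 in log2 units (SE 0.133, edgeR adjusted p = 0.0245), a value that does not separate reads of the endogenous gene from those of the introduced copy. The call was lost without S239A replicate 3 (log2 fold change -0.31, edgeR adjusted p = 0.11), without S239D replicate 1 (edgeR adjusted p = 0.0568), without S239D replicate 3 (edgeR adjusted p = 0.0651). It was also lost when log2 of TPM + 1 was tested with limma (-0.20, adjusted p = 0.585).

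Direct comparison of the opposite serine forms gave differences across much of the transcriptome. Of 16213 tested genes, 7064 passed (43.6%), with 3390 higher (20.9%) and 3674 lower (22.7%) in S239D. Of those, 601 were at least 2-fold higher (3.71% of the genes tested) and 1359 were at least 2-fold lower (8.38%), so large differences were more often losses in S239D. Against WT, 6708 genes passed for S239D (41.4%), and the typical size was alike, with a median absolute log2 fold change of 0.35 against S239A and 0.34 against WT. S239A and WT, by contrast, had a median absolute log2 fold change of 0.13 and 1 called gene (edgeR, with 1583 at an unadjusted p under 0.05). That last comparison is also the test of whether S239D differs from S239A by another amount than from WT, since S239D cancels between them, and TXNIP was the gene that passed it. It was made in the main fit only and was not repeated in the alternative fits. Genes that did not pass it are not thereby shown to be equal in S239A and WT. For every other gene and for the lists, values against S239A and against WT are set side by side as a description, and they share the S239D libraries. Limma on log2 of TPM + 1 called fewer genes and split them otherwise, with 2784 higher and 1913 lower, and its median over all genes was 0.09, against 0.01 for edgeR.

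**Figure D1:**
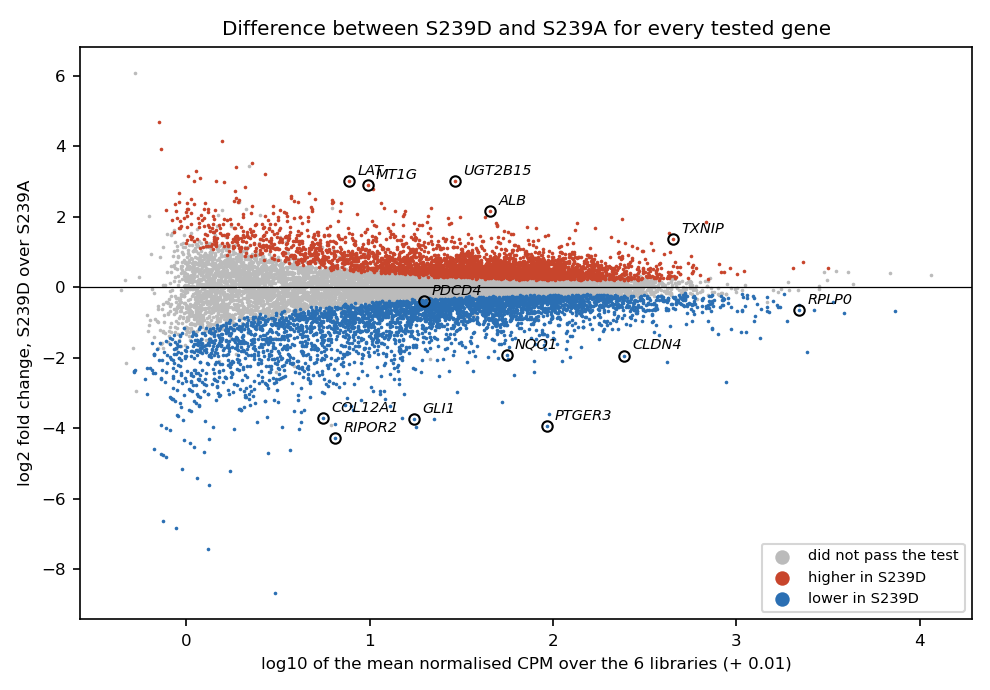
Each point is 1 of 16213 genes, placed by its mean normalised CPM over the 6 S239A and S239D libraries (log10 axis) and its log2 fold change of S239D over S239A. Red and blue points passed the edgeR test higher and lower, and the lower side reaches farther, with 1359 genes at least 2-fold down against 601 up.

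Where the libraries of the 2 groups did not overlap, their mean reached 5 CPM and the gene had a symbol, UGT2B15 and LAT had the largest rises. UGT2B15 encodes a glucuronosyltransferase that inactivates androgens, and it was at 5.31, 7.25 and 6.66 CPM in S239A and 46, 59.6 and 49.5 CPM in S239D. The lowest S239D library was thus far above the highest of S239A, and WT (6.5, 8.78 and 7.14 CPM) overlapped S239A. In log2 units the rise was 3.01 (SE 0.157, edgeR adjusted p = 1.14e-08), in a family of similar genes that can share reads. LAT, an adaptor of T-cell receptor signalling, went from 2.22, 0.983 and 1.84 CPM to 13.1, 12.2 and 15.8 CPM (3.01 on the log2 scale). MT1G, a metal-binding metallothionein of a gene family with shared reads, went from 2.84, 1.97 and 2.05 CPM to 14.2, 21.3 and 16 CPM (2.91). In both genes the groups stayed far apart. The other rises by this rule were those of IZUMO1, a sperm fusion protein (2.80), EFCAB2 (2.51), ANKRD29 (2.49), DIO2, the deiodinase that activates thyroid hormone (2.40), TNFAIP3, an inhibitor of NF-kB signalling (2.40), MIR34AHG, the host transcript of the p53-induced miR-34a (2.38), and SMN2 (2.42). SMN2 is uncertain, because it shares nearly all of its sequence with SMN1, and it was at 0, 6.15 and 0 CPM in S239A and 8.7, 13.4 and 9.55 CPM in S239D. Its call was lost with DESeq2 (adjusted p = 0.329), with limma on log2 of TPM + 1 (adjusted p = 0.0569) and without any 1 of S239A replicates 1 and 3 or S239D replicates 2 and 3 (edgeR adjusted p = 0.0564 to 0.0913).

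The largest falls were deeper than the rises. RIPOR2, an inhibitor of the small GTPase RhoA, was at 10.9, 13.5 and 12.6 CPM in S239A and 0.857, 0.74 and 0.315 CPM in S239D. RIPOR2 thus fell by 4.28 in log2 units (SE 0.272, edgeR adjusted p = 4.99e-08), with S239D replicate 3 at the level of 3 counts. PTGER3, the EP3 receptor of prostaglandin E2, fell from 167, 193 and 159.8 CPM to 11.5, 13.2 and 9.55 CPM (-3.93, SE 0.128). TUNAR, a long noncoding RNA, had the smallest adjusted p of the genes named by this rule and went from 176, 179 and 169.7 CPM to 14, 14.3 and 15.1 CPM (-3.59, SE 0.0923, edgeR adjusted p = 8.98e-12). None of these 3 genes had an S239D library near an S239A library. FAIM2, an inhibitor of Fas-driven apoptosis (-3.97), GLI1, the effector of Hedgehog signalling (-3.75), the collagen genes COL9A2 (-3.86) and COL12A1 (-3.71), SUSD2 (-3.73), the diacylglycerol kinase gene DGKG (-3.70) and the complement gene C3 (-3.48) made up the rest.

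**Figure D2:**
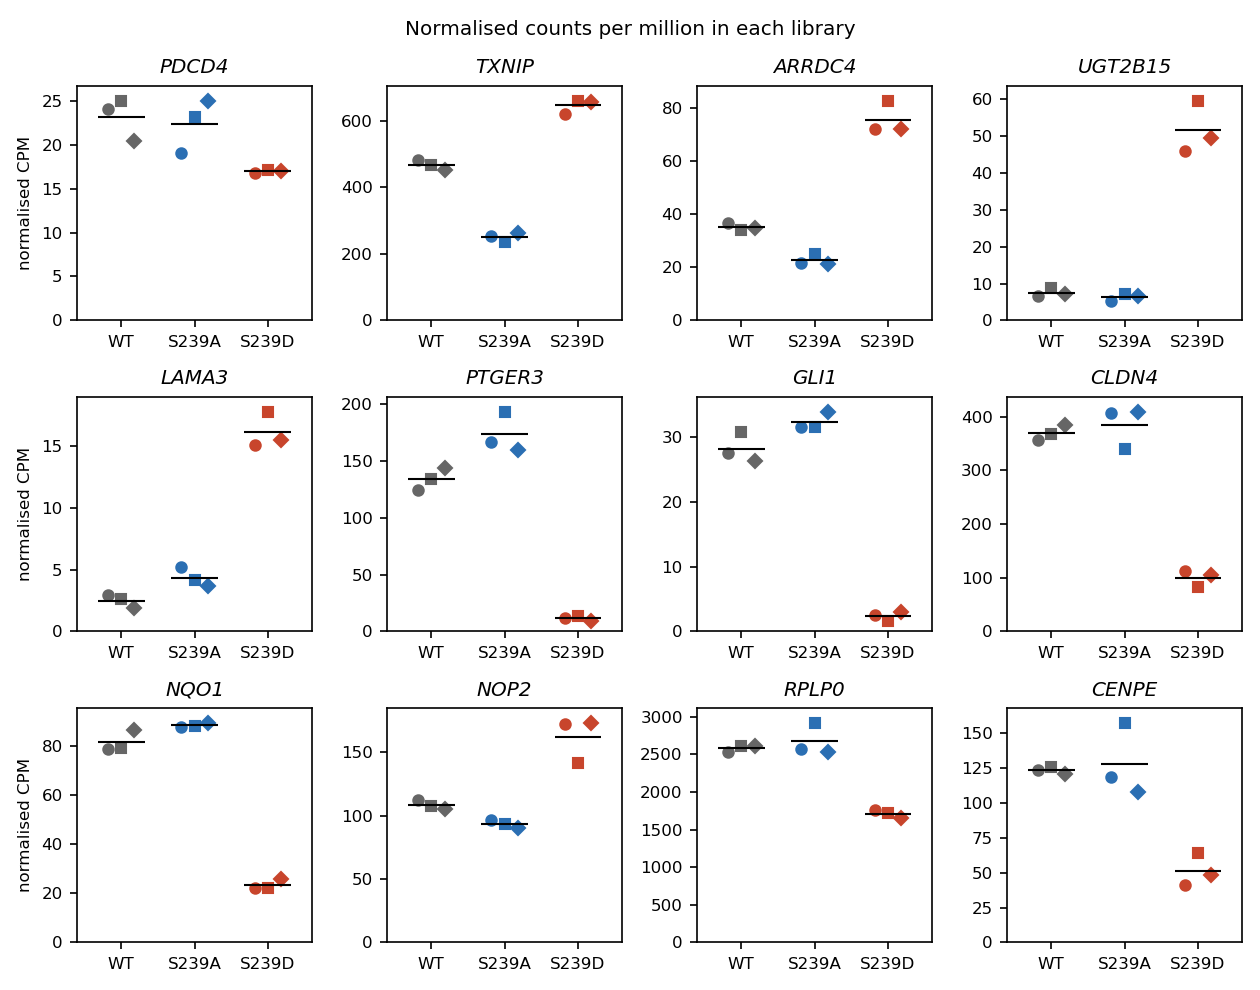
Normalised CPM (linear axes from 0) of 12 genes in each of the 9 libraries, with circles, squares and diamonds for replicates 1, 2 and 3 and a line at each group mean. TXNIP and ARRDC4 step down from S239D through WT to S239A, whereas for GLI1, PTGER3 and CLDN4 the S239D libraries alone lie far below the rest.

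TXNIP, whose product binds thioredoxin and restrains glucose uptake, was the 1 gene for which S239A differed from WT by the test, and S239D lay on the other side of WT. Its level was 253, 237 and 263 CPM in S239A, 484, 469 and 452 CPM in WT and 622, 661 and 658 CPM in S239D. The 3 groups did not overlap. The log2 fold change was 1.37 for S239D over S239A (SE 0.0746, edgeR adjusted p = 1.67e-08), of which 0.47 lay between S239D and WT and -0.90 between S239A and WT (edgeR adjusted p = 9.79e-05 for the latter). Its relative ARRDC4, an arrestin-domain protein that also limits glucose uptake, had 21.6, 25.2 and 21.3 CPM in S239A, 36.7, 34.1 and 35 CPM in WT and 72, 82.9 and 72.2 CPM in S239D. It too had WT in the middle without overlap, with 1.74 between the variants, 1.10 between S239D and WT and -0.64 between S239A and WT (edgeR adjusted p = 0.131 for S239A, which did not pass). KLF10, a glucose-responsive zinc finger repressor, followed the same order (1.45, 1.05 and -0.40). ARRDC3, another relative, rose (0.47, not with limma on log2 of TPM + 1), and TXNRD1, the reductase that keeps thioredoxin active, fell (-0.92). These 5 were the called members of 14 thioredoxin and glucose-sensing genes. That 35.7% is under the 43.6% of all genes, so the count is no result about the list. The list's median was -0.03, against 0.01 over all genes.

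The carbohydrate response element (ChoRE) is the paired E-box through which ChREBP and MondoA, glucose-sensing transcription factors, act on TXNIP. The motif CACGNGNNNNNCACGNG was searched on both strands of RefSeq promoters (GRCh38.p14, 250 bases before to 50 after each start), and 20 of 27305 held it (0.0732%). Of 11 tested genes of the list with a promoter in that table, TXNIP alone matched, and the promoter of ARRDC4 did not hold these letters. The TXNIP stretch is shown because TXNIP was the gene that passed between S239A and WT, with the match in capitals, on the minus strand of chromosome 1 (chr1:145996610-145996709).
TXNIP promoter, 130 to 31 bases before the start: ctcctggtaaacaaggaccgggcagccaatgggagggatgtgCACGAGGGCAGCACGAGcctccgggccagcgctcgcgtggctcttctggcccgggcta

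The place of WT among the 3 groups is given as a description of the levels, since TXNIP alone passed the test between S239A and WT. In 517 genes (3.19%) S239A was highest, WT between and S239D lowest with no overlap, and in 359 genes (2.21%) the order was the reverse. S239A lay between WT and S239D in 273 genes with WT highest (1.68%) and in 230 genes with S239D highest (1.42%). S239D was the middle group in few genes, 9 with S239A highest (0.0555%) and 6 with WT highest (0.037%). The order S239A, WT, S239D held 6 of the 10 largest falls. COL12A1, a fibril-associated collagen, was at 11.6, 10.7 and 8.71 CPM in S239A, 6.07, 4.39 and 7.48 CPM in WT and 0.735, 0.493 and 1.05 CPM in S239D, with log2 fold changes of -3.71 against S239A and -2.95 against WT. C3 (-3.48 and -2.82), DGKG (-3.70 and -3.07), PTGER3 (-3.93 and -3.55), FAIM2 (-3.97 and -3.70) and GLI1 (-3.75 and -3.54) had the same order. On the reverse side stood DIO2 (2.40 and 1.95), KCTD15 (2.0 and 1.35), the hyaluronan synthase HAS3 (2.0 and 1.62), the adrenergic receptor ADRA2A (1.95 and 1.77) and GPNMB (1.85 and 1.44). The order of the groups fixes which of these values is larger, and in each gene the difference between S239A and WT did not pass (edgeR adjusted p = 0.201 to 0.675).

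Genes with S239A between WT and S239D were chosen in the same way, and here too the order fixes which difference is larger. NDUFA4L2, a hypoxia-induced mitochondrial protein, was at 110.1, 111 and 104 CPM in WT, 71.5, 61.6 and 76.9 CPM in S239A and 18.6, 16.4 and 18.6 CPM in S239D. The log2 fold change was -1.97 against S239A and -2.60 against WT, and the 3 groups did not overlap. CCN2, a matricellular growth factor (-1.66 and -2.30), the kisspeptin receptor gene KISS1R (-1.69 and -1.95) and CRABP2, a carrier of retinoic acid (-1.54 and -1.74) had the same order. MYC, an oncogenic transcription factor, also stepped down from 255, 245 and 252 CPM in WT over 214, 198 and 206 CPM in S239A to 194, 174 and 186 CPM in S239D. Its groups did not overlap, but the step from S239A to S239D did not pass (-0.16, 95% interval -0.32 to 0.01, edgeR adjusted p = 0.108), while that from WT to S239D was -0.44. Upward in the same way went LAMA3, a chain of laminin-332, with 2.93, 2.63 and 1.93 CPM in WT, 5.18, 4.18 and 3.69 CPM in S239A and 15.1, 17.8 and 15.4 CPM in S239D (1.89 against S239A and 2.69 against WT). The orphan nuclear receptor NR4A3 (1.77 and 2.37) and the nuclear noncoding RNA MALAT1 (1.06 and 1.27) had that order too.

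**Figure D3:**
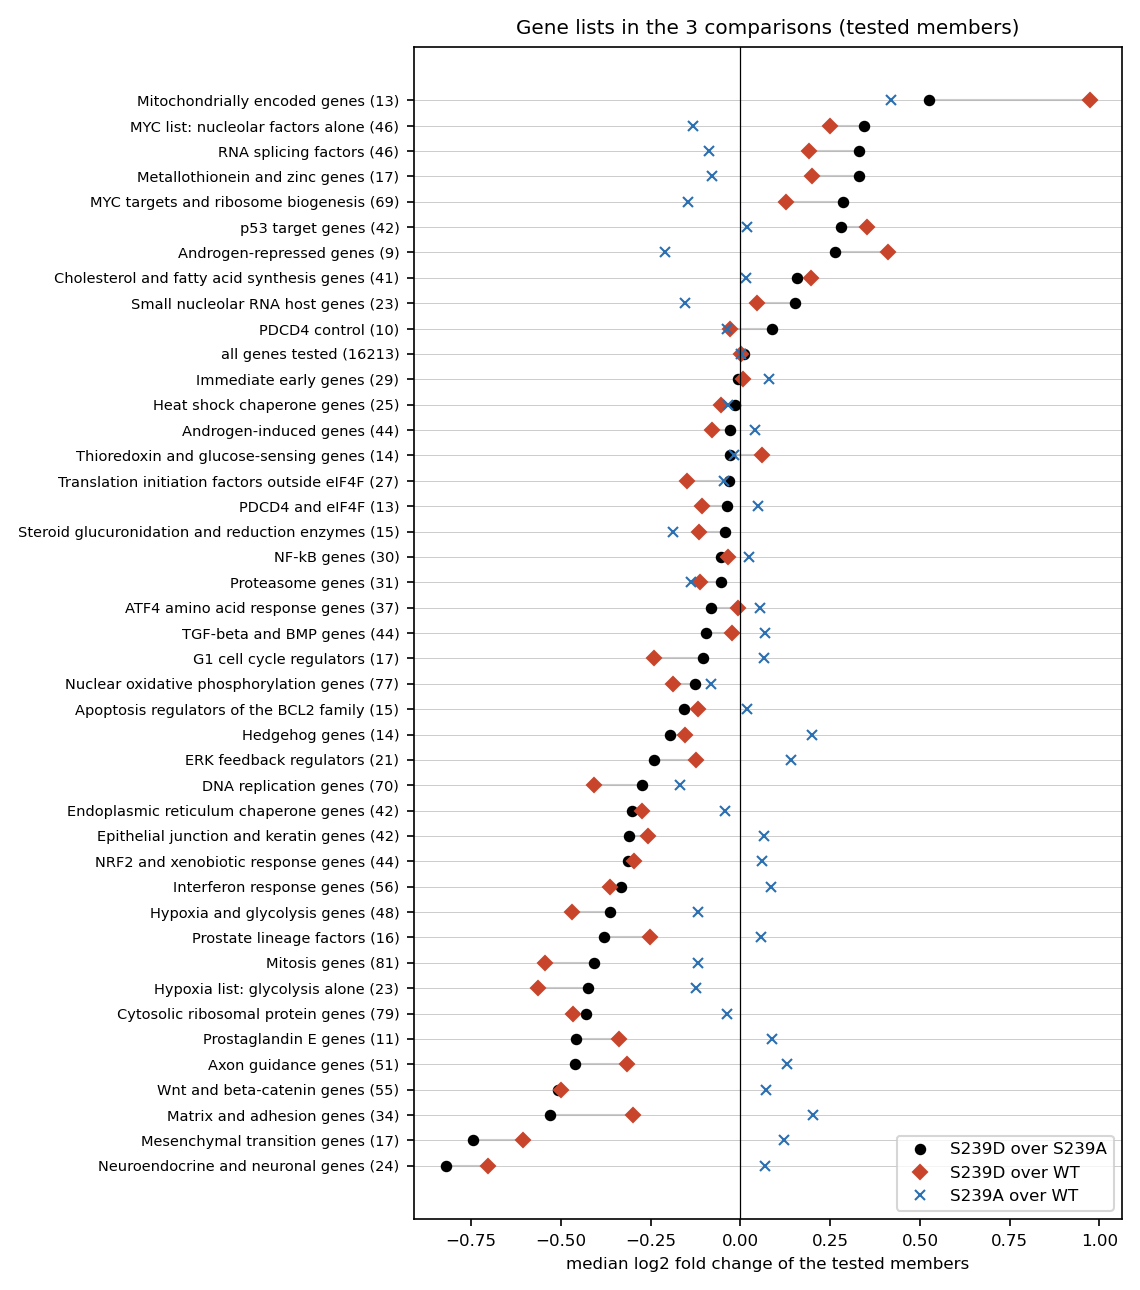
Median log2 fold change of the tested members of each gene list (number of members in brackets) for S239D over S239A (black), S239D over WT (red) and S239A over WT (blue crosses), which share libraries. Black points lie to the right of red for the nucleolar and splicing lists and to the left for matrix and axon guidance genes.

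The machinery PDCD4 acts on differed in part. EIF4A1, the helicase it holds, was at 802, 818 and 773 CPM in S239A and 791, 771 and 786 CPM in S239D, with overlap (-0.03, 95% interval -0.17 to 0.12, edgeR adjusted p = 0.769). Its paralogue EIF4A2 (0.18, 95% interval -0.03 to 0.38) and PLK1 (0.08, 95% interval -0.10 to 0.25, edgeR adjusted p = 0.462) did not pass either. EIF4G1, the scaffold of eIF4F, rose from 678, 875 and 716 CPM to 1161, 983 and 1150 CPM (0.54), as did EIF4G2 (0.45) and the cap-binding EIF4E (0.37). Falls were found for EIF4EBP1, the repressor that sequesters EIF4E (-0.73), for the poly(A)-binding PABPC1 (-0.49) and for EIF4B, a helicase cofactor (-0.28). The calls of PABPC1 and EIF4B were lost with limma on log2 of TPM + 1 (adjusted p = 0.0909 and 0.065). With PDCD4 itself, 3 of 13 genes of this list rose and 4 fell, a share called of 53.8%, against 43.6% of all genes. Of 10 kinases and ligase subunits that act on PDCD4, only the ubiquitin ligase subunit BTRC passed (0.41). That 10% is under the 43.6% of all genes, so the count is no result about the list. The call of BTRC was lost without S239A replicate 1 (edgeR adjusted p = 0.0919) or S239A replicate 3 (edgeR adjusted p = 0.068). Limma on log2 of TPM + 1 did not call BTRC either (adjusted p = 0.322). Among 27 initiation factors outside eIF4F, 7 rose, with EIF2B5 of the guanine exchange factor at 0.82, and 5 fell (2 with limma on log2 of TPM + 1), with the eIF3 subunit EIF3L at -0.65. Their 44.4% called is near the 43.6% of all genes.

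Ribosomal protein genes and the factors that build ribosomes differed in opposite directions. The 79 genes for cytosolic ribosomal proteins had 61 that fell and 0 that rose in S239D, with a median of -0.43, close to the -0.47 against WT. RPLP0, of the ribosomal stalk, fell from 2569, 2922 and 2534 CPM in S239A to 1763, 1718 and 1648 CPM in S239D (-0.65, SE 0.0742, edgeR adjusted p = 1.15e-05), and RPL13A (-0.63) and RPL10A (-0.65) fell with it. Processed pseudogenes can share reads with these genes, and limma on log2 of TPM + 1 called 40 of them lower. In the opposite direction, 30 of 46 nucleolar and ribosome assembly factors rose and 2 fell, against 20.9% and 22.7% of all genes, with a median of 0.34. That median was 0.25 against WT and -0.13 for S239A over WT. NOP2, a methyltransferase of ribosomal RNA, was at 96.8, 93.7 and 90.5 CPM in S239A, 112, 108 and 105 CPM in WT and 172, 141 and 173 CPM in S239D, 3 groups that did not overlap (0.79 against S239A and 0.58 against WT). RRP9, of the U3 small nucleolar ribonucleoprotein (1.04), and GNL3, nucleostemin (0.70), had the same order, while the methyltransferase fibrillarin, encoded by FBL (-0.67), and NPM1, nucleophosmin (-0.44), were the 2 that fell. Other MYC-induced genes went both ways (6 higher and 3 lower of 23, median 0.01), with TFRC, the transferrin receptor, at 1.04 and the prohibitin gene PHB2 at -0.64.

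Of 46 RNA splicing factors, 28 rose, 4 fell and 14 did not pass, against 20.9% and 22.7% of all genes that rose and fell, with a median of 0.33 (0.19 against WT). RBM5, a tumour suppressor that regulates exon choice, went from 63.7, 57.3 and 66.4 CPM to 119, 133 and 134 CPM (1.04, SE 0.09), well apart from S239A. PNISR (0.82), the SR-related SREK1 (0.84) and HNRNPM (0.57) rose as well. Of 23 noncoding hosts of small nucleolar RNAs, 7 were higher and 3 lower, and their 43.5% called is near the 43.6% of all genes, so the count is no result about them. SNHG17 (1.07) and SNHG20 (1.22, against 0.70 over WT) were higher, and SNHG29 (-0.54) was lower.

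**Figure D4:**
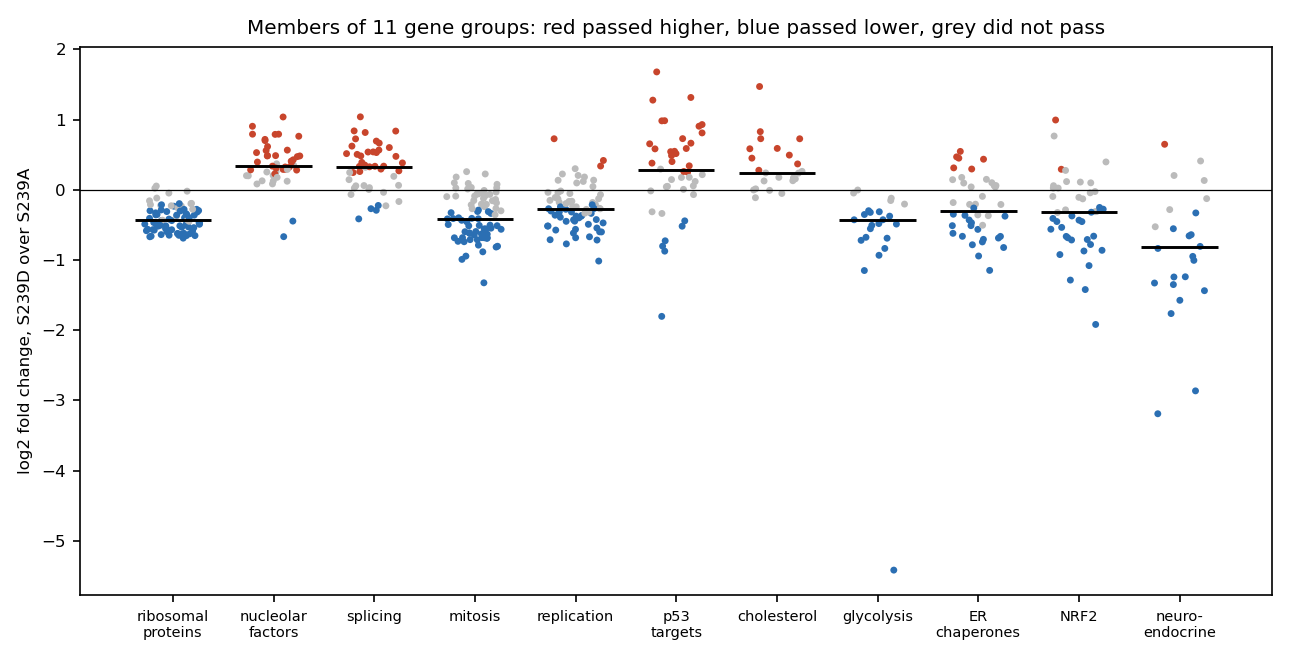
Log2 fold change of S239D over S239A for every tested member of 11 gene groups, with a line at each median. Nucleolar and splicing factors lie mostly above 0, and ribosomal protein, mitosis and replication genes mostly below, while the neuroendocrine group has the lowest median (-0.82).

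Many cell cycle genes fell in S239D, and the medians were nearer 0 against S239A than against WT. Of 81 mitosis genes, 48 fell and 0 rose, with a median of -0.41 against S239A and -0.55 against WT. UBE2S, a conjugating enzyme of the anaphase-promoting complex, went from 399, 394 and 414 CPM in S239A to 241, 181 and 206 CPM (-0.94, SE 0.094, edgeR adjusted p = 3.04e-06). CENPE, a kinetochore motor, went from 119, 158 and 108 CPM to 41.3, 63.9 and 48.2 CPM (-1.32, SE 0.153). Neither gene had overlapping groups. The mitotic kinesin KIF20A (-0.81) and the kinase gene PBK (-0.73, against -0.94 over WT) also fell. The cell cycle homology element TTTGAA, through which the DREAM complex acts on late cell cycle genes, was found on either strand in 15.4% of RefSeq promoters. It was in 24 of the 40 promoters of mitosis genes that fell and in 18 of the 29 that did not pass. Of 70 DNA replication genes, 36 fell and 3 rose (5 without S239A replicate 2), with a median of -0.27 against S239A and -0.41 against WT. RRM2 of ribonucleotide reductase (-0.62), the thymidine kinase TK1 (-0.71), the transcription factor E2F2 (-0.77) and GINS2 of the replicative helicase (-0.67, against -0.96 over WT) were lower, while thymidylate synthase, TYMS, rose (0.73). Among 17 regulators of the G1 phase, 8 fell, with the D-type cyclin gene CCND3 at -0.97 and CDK6 at -1.05, and CDKN1B, which encodes the inhibitor p27, rose (0.47). The share called of these regulators was 52.9%, against 43.6% of all genes. With limma on log2 of TPM + 1, 29 mitosis and 12 replication genes were called lower, and the replication median was -0.14.

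Transcripts of the mitochondrial genome had a smaller median difference between the variants than between S239D and WT. All 13 messenger RNAs had positive values, 7 rose and 0 fell, with a median of 0.53 against S239A and 0.97 against WT. MT-ND6, a complex I subunit, was at 286, 349.5 and 236 CPM in S239A, 383, 724 and 635 CPM in S239D and 156, 209 and 189 CPM in WT, with no overlap (1.0 and 1.66). MT-ATP6, of ATP synthase, had an S239A replicate 2 close to the lowest S239D library (1466, 2437 and 1322 CPM against 2499, 3444 and 2617 CPM). The count that rose was 4 without S239A replicate 1, S239A replicate 3 or S239D replicate 2, 13 without S239A replicate 2, 12 with the replicate number as a block and 4 with DESeq2 or with limma on log2 of TPM + 1. The median was 0.80 without S239A replicate 2 and 0.35 without S239A replicate 3. Of 77 nuclear genes of oxidative phosphorylation, 8 rose and 17 fell, and their 32.5% called is below that of all genes, so that the count is no result about them. The lower count was 3 with limma on log2 of TPM + 1 and ranged from 6 without S239A replicate 3 to 28 without S239A replicate 2. Without 1 library of WT, S239A replicate 1 or S239D replicate 3 the lower count was 7 to 12, and the higher count was as low as 3, without S239D replicate 3. Glucose uptake and glycolysis genes fell, 18 of 23 with 0 higher (median -0.43, and -0.57 against WT). The neuronal enolase ENO2 fell from 238, 205 and 253 CPM to 127, 122 and 142 CPM (-0.83) and the hexokinase HK1 from 330, 396 and 335 CPM to 223, 204 and 217 CPM (-0.72, against -0.49 over WT). Of 25 other hypoxia-response genes, 9 fell, such as DDIT4, an inhibitor of mTORC1 (-1.68), and the oxygen sensor EGLN3 (-1.67), and 3 rose, among them the repressor BHLHE40 (2.25). The 48% called of these 25 is near the 43.6% of all genes.

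Many chaperones of the endoplasmic reticulum fell in S239D. Of 42 genes of this list, 19 fell and 6 rose, with a median of -0.30 against S239A and -0.27 against WT. Their share called was 59.5%, against 43.6% of all genes. PDIA4, a disulfide isomerase, was at 1005, 1011 and 1019 CPM in S239A and 449, 447 and 475 CPM in S239D (-1.15, SE 0.0689, edgeR adjusted p = 3.24e-08). HSP90B1, which folds client proteins in the reticulum, went from 2454, 2685 and 2341 CPM to 1176, 1436 and 1281 CPM (-0.94). S239A stayed above S239D in every library for both. The calcium-binding CALR (-0.82), the isomerase PDIA3 (-0.74) and the master chaperone HSPA5 (-0.66) also fell, while the sensor ATF6 rose (0.47) and XBP1, a transcription factor of the unfolded protein response, did not pass (0.15, edgeR adjusted p = 0.13).

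ATF6 acts through the endoplasmic reticulum stress element (ERSE), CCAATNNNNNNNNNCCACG, which was on either strand of 22 of 27305 promoters (0.0806%). Of 37 list genes with a promoter, 6 held it, and these were 5 of the 17 that fell (HSPA5, CALR, HSP90B1, CANX and CRELD2), 0 of the 5 that rose and 1 of the 15 that did not pass, XBP1. The promoters of 3 genes that fell are shown, with each match in capitals. They lie at chr9:125241351-125241450 on the minus strand (HSPA5), chr19:12938359-12938458 on the plus strand (CALR, where the match reads on the opposite strand) and chr12:103930216-103930339 on the plus strand (HSP90B1, with 2 matches, the second on the opposite strand), in GRCh38.p14.
HSPA5 promoter, 107 to 8 bases before the start: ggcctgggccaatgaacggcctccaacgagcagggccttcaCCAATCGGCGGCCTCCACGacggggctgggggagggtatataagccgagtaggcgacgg
CALR promoter, 250 to 151 bases before the start: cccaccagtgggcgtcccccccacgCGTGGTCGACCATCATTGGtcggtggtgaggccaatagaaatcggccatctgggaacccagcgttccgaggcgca
HSP90B1 promoter, 194 to 71 bases before the start: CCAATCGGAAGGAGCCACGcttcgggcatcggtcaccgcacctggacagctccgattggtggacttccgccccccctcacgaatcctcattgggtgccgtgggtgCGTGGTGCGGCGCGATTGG

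Other stress programmes were mixed. Among 44 genes of the NRF2 and xenobiotic response, 24 fell and 2 rose (median -0.31; 14 lower and a median of -0.21 with limma on log2 of TPM + 1), with the quinone reductase NQO1 falling from 87.4, 88.1 and 89.3 CPM to 21.9, 22.2 and 25.8 CPM (-1.92, SE 0.0979). The S239D values of NQO1 were far under those of S239A, with WT (78.6, 79 and 86.4 CPM) just below S239A. GCLC, the rate-limiting enzyme of glutathione synthesis (-1.08), and UGDH, which makes UDP-glucuronate (-0.87), fell as well. Of 37 ATF4 amino acid response genes, 10 rose and 12 fell, 59.5% called against 43.6% of all genes. Of the 10 transcription factors and regulators, 6 rose and 2 fell. Of the 27 amino acid synthesis and transport genes, 4 rose and 10 fell. The transporter subunit SLC3A2 (0.98), the phosphatase regulator PPP1R15A (1.35) and the transcription factor DDIT3 (1.01) were higher. The lowest value of the list was -1.68. Over the whole list, the higher count was 6 without S239D replicate 1 and 5 without S239D replicate 3, and the lower count was 7 with limma on log2 of TPM + 1. Of 17 metallothionein and zinc genes, 8 rose and 0 fell, with MT1X (1.5), MT1E (1.51) and the zinc exporter SLC30A1 (0.96) beside MT1G. Their share called (47.1%) is near the 43.6% of all genes but with 1 direction. Of 25 heat shock chaperone genes, 24% passed, under the share of all genes, among them the regulator HSF1 (0.65). The inducible chaperone HSPA1A, which has a near-identical copy, fell from 129, 137 and 151 CPM to 42.1, 42.4 and 40.3 CPM (-1.74).

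Of 42 p53 targets, 22 rose and 6 fell, with a median of 0.28 against S239A and 0.35 against WT (3 lower and a median of 0.43 with limma on log2 of TPM + 1). BTG2, an antiproliferative factor, rose from 26.5, 26.8 and 34.5 CPM to 80, 63.1 and 70.7 CPM (1.28), as did TIGAR, which lowers glycolytic flux (1.68), and the DNA damage sensor XPC (0.93). DRAM1, a regulator of autophagy, fell (-1.80), and CDKN1A, which encodes the cell cycle inhibitor p21, did not pass (534, 456 and 564 CPM against 644, 507 and 605 CPM, 0.18, edgeR adjusted p = 0.162), although it did without S239D replicate 2 (0.27, edgeR adjusted p = 0.0202). Of 56 interferon response genes, 23 fell and 9 rose (median -0.33; 13 lower with limma on log2 of TPM + 1). That median was -0.53 without S239D replicate 2. The antigen-presenting HLA-B (-1.81, from a family with shared reads), the tetherin gene BST2 (-2.26) and the ISG15-conjugating enzyme UBE2L6 (-3.68, near 3 counts in S239D) fell, and the ligase DTX3L rose (1.38). NF-kB genes went both ways, 7 higher and 8 lower of 30 (4 and 4 with limma on log2 of TPM + 1). Their 50% called is near the 43.6% of all genes, so the count is no result about them. The inhibitors TNFAIP3 (2.40) and NFKBIA (-0.93) went in opposite directions, and BIRC3 was lower (-1.94). With limma on log2 of TPM + 1, BIRC3 was at -0.59 and lost its call (adjusted p = 0.09). Immediate early genes went both ways too, 11 higher and 9 lower of 29, with the AP-1 subunit JUNB at -1.38. Of 21 ERK feedback regulators, 4 rose and 8 fell (5 with limma on log2 of TPM + 1). The shares called of the immediate early and ERK lists were 69% and 57.1%, against 43.6% of all genes.

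Prostate lineage genes did not move as 1 block. KLK3, which encodes prostate-specific antigen, was at 108, 70.4 and 112 CPM in S239A and 65.3, 55.6 and 61.4 CPM in S239D, and it fell (-0.68, SE 0.143, edgeR adjusted p = 0.00172). S239A replicate 2 was the low library of its group for KLK3, still above S239D. Of 44 androgen-induced genes, 11 rose and 17 fell, with a median of -0.03, where 20.9% of all genes rose and 22.7% fell. The transmembrane serine protease TMPRSS2 (-1.60) and the cytokine receptor LIFR (-2.0, against -1.47 over WT) fell, while the transporter SLC45A3 (1.49) and C1orf116 (1.93) rose. Of 9 androgen-repressed genes, 5 rose and 1 fell, with ST7 at 1.09 and DDC, a decarboxylase of dopamine synthesis, at 1.67 beside UGT2B15. Limma on log2 of TPM + 1 called 3 of 8 higher, without DDC (adjusted p = 0.0898). Among 16 lineage transcription factors 9 fell, including ETV4 (-1.39), KLF5 (-1.32), SOX9 (-0.99) and HOXB13 (-0.63), and the glucocorticoid receptor NR3C1 rose from 41.7, 49.2 and 33.1 CPM to 77, 96.2 and 84.6 CPM (1.06). Of 15 steroid conjugating and reducing enzymes, 4 rose and 6 fell, and of 11 prostaglandin E genes 1 rose and 7 fell. With limma on log2 of TPM + 1 these were 2 and 3 of 16 enzymes and 1 and 3 of 10 prostaglandin E genes. By edgeR, 63.6% of androgen-induced, 66.7% of androgen-repressed and 68.8% of lineage factor genes were called. For the enzymes the share was 66.7% and for prostaglandin E genes 72.7%, against 43.6% of all genes.

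Adhesion and axon guidance genes had lower medians against S239A than against WT. Of 34 matrix and adhesion genes, 19 fell and 6 rose, with a median of -0.53 against S239A, -0.30 against WT and 0.20 for S239A over WT. FN1, fibronectin, was at 121, 149 and 106 CPM in S239A, 83.8, 81.8 and 83.8 CPM in WT and 49.4, 54.1 and 45.4 CPM in S239D (-1.34 against S239A and -0.75 against WT). The 3 groups of FN1 did not overlap. The fibronectin receptor subunit ITGA5 fell too (-0.93). Of 51 axon guidance genes, 29 fell and 9 rose, with a median of -0.46 against S239A and -0.32 against WT. The semaphorins SEMA6B (-1.95) and SEMA6D (-2.50) and the ephrin receptor EPHB3 (-0.88) fell, and another ephrin receptor, EPHA3, rose from 170.1, 172 and 154 CPM to 356, 401 and 357 CPM (1.17). Neuroendocrine and neuronal genes numbered 24, of which 17 fell and 1 rose, with a median of -0.82. The shares called of the matrix, axon guidance and neuroendocrine lists were 73.5%, 74.5% and 75%, against 43.6% of all genes. With limma on log2 of TPM + 1, 10 matrix and 13 axon guidance genes were called lower, and the medians were -0.22 and -0.23. SRRM4, a splicing regulator of neuroendocrine prostate cancer, fell from 266, 252 and 259 CPM to 132, 133 and 138 CPM (-0.95, SE 0.0723, against -0.61 over WT), with SEZ6 (-1.24) and the synaptic SNAP25 (-1.33), while the synaptotagmin SYT4 rose (0.65).

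Of 42 epithelial junction and keratin genes, 25 fell and 5 rose (median -0.31; 14 lower with limma on log2 of TPM + 1). CLDN4, a tight junction claudin, fell from 407, 339 and 409.5 CPM to 113, 83.4 and 105 CPM (-1.94, SE 0.112, edgeR adjusted p = 2.21e-08) and the luminal keratin KRT8 from 1833, 2156 and 1886 CPM to 748, 626 and 776 CPM (-1.45). Neither had overlapping groups. The junction scaffold TJP3 fell (-1.59) and ladinin, LAD1, rose (0.86). The count that rose was 3 without S239A replicate 1, S239A replicate 3 or S239D replicate 2 and 2 without S239D replicate 3. Genes of the mesenchymal transition fell as well, 9 of 17 with 2 higher (median -0.74), so that both lists were lower in S239D. Of 55 Wnt and beta-catenin genes, 24 fell and 7 rose (median -0.51), the higher count being 4 without S239A replicate 1 or S239A replicate 3. Limma on log2 of TPM + 1 gave 17 lower, 4 higher and a median of -0.29. The feedback inhibitors RNF43, at 174, 206 and 167 CPM in S239A and 39.3, 41.3 and 46.6 CPM in S239D (-2.10), and NOTUM (-3.33) fell, and TNFRSF19 rose (1.31, against 0.75 over WT). Of 14 Hedgehog genes, 28.6% passed, under the 43.6% of all genes, so their count is no result about that list. GLI1 (-3.75), the coreceptor CDON (-1.41) and HHAT, the acyltransferase of the ligand (-0.80), were those that fell, HHAT without a call in limma on log2 of TPM + 1 (adjusted p = 0.115). TGF-beta and BMP genes went both ways, 12 higher and 14 lower of 44 (6 and 8 with limma on log2 of TPM + 1), with the ligand BMP2 rising from 39, 41.4 and 34.2 CPM to 128, 119.6 and 121 CPM (1.69) and SMAD4 at 0.65. Their share called was 59.1%, against 43.6% of all genes.

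Of 23 cholesterol synthesis and uptake genes, 10 rose and 0 fell, a share called (43.5%) near that of all genes but with 1 direction (median 0.24). IDI1, an isomerase of the pathway (0.83), and squalene epoxidase, SQLE (0.73), rose. Of 13 fatty acid synthesis genes, 2 rose and 5 fell (53.8% called, median -0.01), among the latter ACSL4, which activates polyunsaturated fatty acids (-1.37). Proteasome genes (5 higher and 2 lower of 31) and BCL2 family genes (2 and 2 of 15) were called less often than the 43.6% of all genes, so their counts are no result about those lists. The higher counts moved to 3 without S239A replicate 1 or S239D replicate 3 and 8 without S239D replicate 2 for the proteasome, and to 5 without S239D replicate 2 for the BCL2 family. ALB, which encodes serum albumin, rose from 15.8, 20.6 and 13.2 CPM to 71.9, 80.7 and 70.1 CPM (2.17, SE 0.14), with WT (16.1, 18.1 and 17.9 CPM) within the range of S239A. TTR, another liver-secreted carrier, was at 1.11, 0.492 and 1.33 CPM in S239A, 1.84, 2.28 and 2.49 CPM in WT and 3.19, 1.97 and 2.62 CPM in S239D. TTR passed between the variants (1.37, edgeR adjusted p = 0.0106), while WT overlapped S239D.

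Genes that passed were spread unevenly over the chromosomes. On chromosome 3, 39.7% of 885 tested genes were higher and 14.5% lower in S239D than in S239A, with a median of 0.24. On chromosome 18 these were 37.9% and 12.1% of 232 genes, with a median of 0.27. Both stood away from the 20.9% and 22.7% of all genes, and the medians of S239D over WT were 0.22 and 0.21, against -0.01 and -0.03 for S239A over WT. Chromosomes 8 (0.12), 16 (0.11) and 21 (0.11) had smaller positive medians, and every other autosome and chromosome X lay between -0.09 and 0.05. RBM5, RRP9, GNL3, TFRC, EIF4G1, EIF2B5, XPC, BHLHE40, DTX3L, EPHA3 and EIF4A2 lie on chromosome 3 and LAMA3, TYMS, SMAD4, SYT4, TTR and ANKRD29 on chromosome 18, and the part of the chromosome in their values was not tested. EPHB3 and DGKG fell although they lie on chromosome 3.

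**Figure D5:**
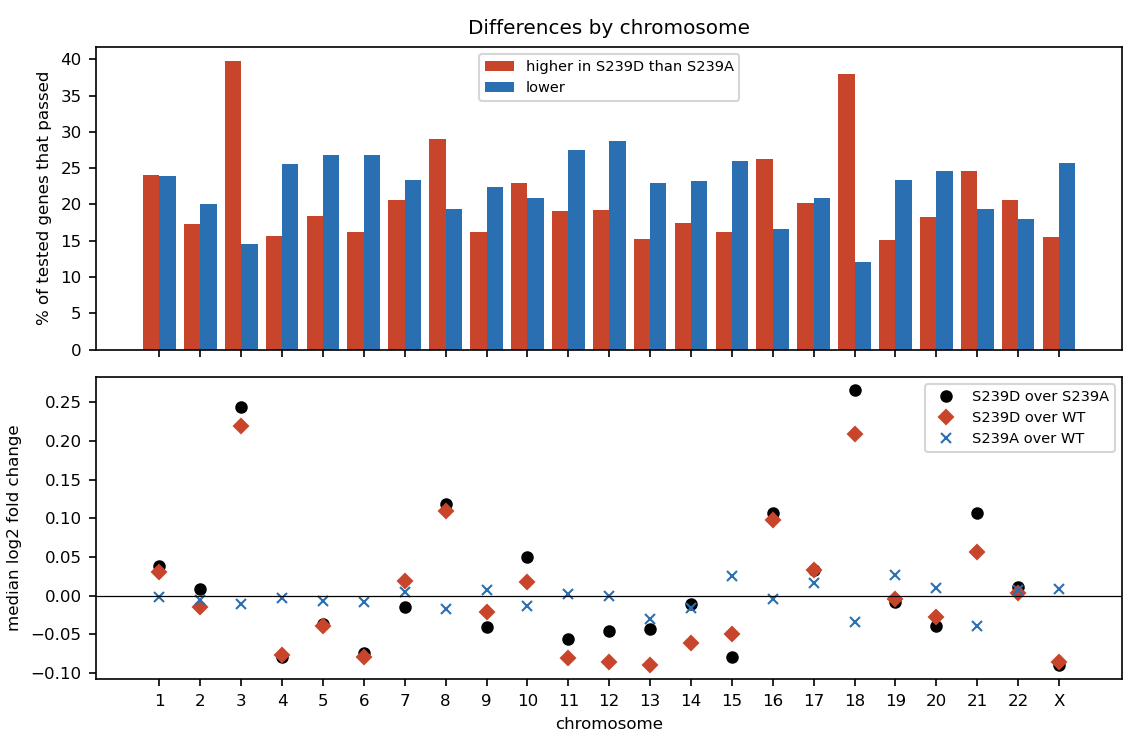
Upper panel, share of tested genes that passed higher (red) or lower (blue) in S239D than in S239A on each chromosome. Lower panel, median log2 fold change for the 3 comparisons; chromosomes 3 and 18 stand above the rest for S239D over S239A (0.24 and 0.27) and over WT, and S239A over WT stays near 0.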

How the data were processed

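RNA was sequenced from 9 libraries of 22Rv1 cells, and groups follow the genotype labels. Gene-level expected counts were deposited by the authors, who used Trimmomatic 0.39 and RSEM, per the submitters' processing notes. They also deposited TPM, scaled within each library. The aligner, strand setting and genome build are not given in the sources used here. Of gene IDs, 96.52% were in GENCODE 29 (GRCh38), and 99.89% of these overlapped the annotated position, so its coordinates were used. Genes without a symbol took 1.33% of counts.

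Expected counts were rounded (3.81% were not whole) and fitted with edgeR 4.0.16 in R 4.3.3 (TMM scaling, its filter on low counts, quasi-likelihood F test, 3 groups and 9 libraries), which gives 16213 tested genes. Called means a Benjamini-Hochberg adjusted p under 0.05 over all of them. CPM values are scaled by TMM. The 95% intervals come from the fitted SE. Total counts of 5696841 to 9688554 set the precision, and floors cover counting error only. The script was tested on simulated data.

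The text names UGT2B15, KLK3, TXNIP, MYC, PLK1, PDCD4 and its helicase partners EIF4A1 and EIF4A2, the 10 largest rises and falls as the report defines them, up to 6 genes for each order of the groups, the 4 smallest adjusted p of each list, and central members. Further members were picked after their values were seen, and some genes are not reported here. The comparison, members and lists were chosen with earlier results of these data known. Replicate numbers are in the labels without a stated meaning. Same-numbered S239A and S239D libraries correlated in their deviations from the group means (0.206, 0.418 and 0.184), although S239A replicate 3 and S239D replicate 1 reached 0.3. Same-numbered WT and S239A libraries correlated at 0.104, 0.0149 and 0.175, and those of WT and S239D at -0.0428, 0.0267 and 0.0695. Whether the number marks pairs is not settled by these values. The fit with the number as a block is only an alternative to the reported fit, which has none. Alternatives were RLE scaling, DESeq2 1.42.0, other filters, only the 6 libraries, a block, limma 3.58.1 on log2 of TPM plus 1 or 0.1, each library left out, both second replicates left out and, added after seeing the data, the block in 6 libraries and the fit without mitochondrial and ribosomal protein genes.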

Additional observations from a re-analysis of the deposited data

How the results depend on the processing

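The 7064 calls between S239D and S239A ranged from 5853 to 7182 when 1 library was left out, and from 5950 to 8243 over the other fits of counts with edgeR or DESeq2. With the replicate number as a block, 7610 genes passed in 9 libraries and 7511 in the 6 libraries, although the number is not known to mark pairs. The block changed no call of a named gene. No list count changed by over 1.5 times apart from the mitochondrial messenger RNAs (12 higher) and, in 6 libraries, the snoRNA hosts (5 lower). Limma on log2(TPM + 1) called 4697 genes, with 1913 lower, and on log2(TPM + 0.1) 4642, with 1934 lower, and the cause was not tested. PDCD4 lost its call in both (-0.20, adjusted p = 0.585, and -0.21, adjusted p = 0.589), while its log2 fold change over single libraries left out was -0.50 to -0.31. The sign reversed for EIF4A1 (0.12 with both pseudocounts, 0.0055 without both second replicates), which was not called. The BCL2 family median reversed to 0.11 with both pseudocounts. List medians just below 0 in the main fit changed sign too. On log2(TPM + 1) these included androgen-induced (0.06), proteasome (0.06), immediate early (0.15) and outside initiation factor genes (0.14). Steroid enzymes were at 0.17 without S239A replicate 1. In each limma fit, 21 further list medians moved by at least the SD between libraries of a group. Of 156 genes of the text, 151 were tested in all 20 alternatives, and 137 of these kept direction and side of the threshold in each. The other 5 were tested in fewer and kept both in those. ARRDC3, PABPC1, EIF4B, DDC, BIRC3, HHAT and BTRC (adjusted p = 0.322 and 0.321) lost their calls with limma and both pseudocounts, SMN2 with the pseudocount of 1 (adjusted p = 0.0569) and LAMA3 with that of 0.1 (adjusted p = 0.0587). MYC (-0.14, edgeR adjusted p = 0.0445) and XBP1 (0.15, edgeR adjusted p = 0.0443) passed without both second replicates. Depth limits genes near 3 counts, and a pseudocount understates the folds of low genes.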
